A study of Mus musculus with 9 samples.

Results

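The embryo-library RIKEN clones were 302 array probes whose clone numbers begin with the leading digits of 4 cDNA libraries made from mouse embryos, those of clones 1110013E22, 2610018C13, 2810043O03 and 5730564C23. They were chosen by name alone, out of 15675 probes for RIKEN clones and 97836 probes in all. The prefixes held 305 probes, of which 3 were left out, those for Cxcl14 and for the antisense loci Sox6os and Rab26os. All 302 probes read different clones. RefSeq's gene table lists 120 of the clones under the symbol or another name of a gene. These stood for 119 genes, since 5730408K05Rik was read by 2 clones. Of the 120, 98 were protein-coding, 20 were long noncoding RNAs and 2 were transcribed pseudogenes. The other 182 had no gene name and are called by their clone number.

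The samples were livers of male C57BL/6J mice, an inbred strain, taken at 20 weeks of age. In the metformin group, mice ate a high fat diet with 45% of its energy from fat for 17 weeks and received metformin, a glucose-lowering drug, by gavage at 3 mg/kg/day over the last 5 weeks. In the high fat diet group, mice ate that diet for the same 17 weeks and were gavaged with saline over the last 5 weeks. In the control group, mice ate chow for 17 weeks, and the labels name no gavage for them. Each group had 3 arrays, each of 1 pool of liver from 4 mice, so the spread between pools is smaller than that between mice would be. In such bulk tissue, fewer cells of a type and less RNA per cell cannot be told apart. None of the 41 marker genes listed for liver cell types had a named probe, so the labelled tissue was not checked against them.

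RIKEN clones are full-length cDNAs that were sequenced in large numbers from many mouse tissues and stages, and the leading digits of a clone name mark its source library. Many were named by clone number until a gene was assigned, and some stem from noncoding, antisense or intronic transcripts. A clone named here after a gene is read by a probe for that clone, which may cover only part of the gene. The library says where a clone was isolated, not where else its transcript is made.

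Levels are log2 signals relative to the 75th percentile of each array, and since probes differ in how strongly they bind, levels are compared between groups within a probe only. All 3 control arrays and high fat diet replicate 1 lay on slide 1, high fat diet replicates 2 and 3 and metformin replicates 1 and 2 on slide 2, and metformin replicate 3 on slide 3. Metformin and control therefore shared no slide, and slide and group cannot be told apart in full. Control replicate 1 stood apart: its level differed from the mean of the other control pools by a median of 0.32 on the log2 scale over all tested probes, against 0.16 to 0.22 for the other 8 arrays.

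Most embryo-library clones gave a signal in adult liver. A probe counted as above background where at least a share of 0.5 of its spots passed the extraction software's own test. Of the 302 probes, 176 (58.3%) were above background on all 9 arrays, 56 on some arrays and 70 (23.2%) on none. On at least 3 arrays, 214 (70.9%) were above background. Most probes of any kind gave a signal too. Of all 97836 probes, 50.5% were above background on all 9 arrays, 63.5% on at least 3 and 29.2% on none. By array, the share was 71.2%, 61.9% and 65.6% in metformin pools, 71.2%, 64.2% and 68.2% in high fat diet pools, and 65.2%, 67.9% and 74.2% in control pools. The groups overlapped throughout. The mean share was 66.2% ± 4.67 in metformin, 67.9% ± 3.49 in high fat diet and 69.1% ± 4.59 in control livers (SD, n = 3 each). The exact two-sided permutation p was 0.8 for metformin against high fat diet, 0.6 for metformin against control and 0.8 for high fat diet against control, where 3 against 3 cannot go below 0.1.

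Over all kinds of clone together, the share was above that of the other clone sets on every array. Embryo-library clones exceeded the 1141 testis-library clones by 26.6 ± 1.45 percentage points (SD over 9 arrays), the 13989 other RIKEN clones by 10.5 ± 1.12, and the 240 clones of liver and digestive-tract libraries by 4.54 ± 1.00. They exceeded the 82161 probes other than RIKEN clones by 7.23 ± 1.41 points. Each difference was positive on 9 of 9 arrays, with an exact two-sided sign-flip permutation p of 0.00391 and the same value after Benjamini-Hochberg adjustment, the smallest 9 arrays allow. This test, here and in the split by kind below, is over arrays that share the same probes, so a difference between sets tends to repeat on each. It speaks of the spread between pools and not of the choice of probes. The shares had been planned as a description without a test. The sets differ in their kinds of clone, with 98 coding of 302 embryo-library clones and 44 coding of 240 liver and digestive-tract clones, and a split by kind was added after the first result was seen. Among coding clones, the embryo-library share was lower than that of liver and digestive-tract clones on 7 of 9 arrays, at a mean of 72.0% against 75.5%, a difference of -3.51 ± 3.47 points (SD over 9 arrays; exact two-sided sign-flip permutation p = 0.0273, adjusted p = 0.0308 over 9 such differences). Among clones with no gene name it was higher on 9 of 9 arrays, at 66.5% against 61.2%, a difference of 5.31 ± 1.23 points (exact permutation p = 0.00391, adjusted p = 0.00502). Among noncoding and pseudogene clones, 22 against 20, it was higher on 7 of 9 arrays, by 5.25 ± 5.53 points (exact permutation p = 0.0391, adjusted p = 0.0391). With 44 coding and 20 noncoding liver and digestive-tract clones, a few probes can move such differences. Against testis-library clones and other RIKEN clones the share was higher on 9 of 9 arrays in each of the 3 kinds, by 21.2 to 25.1 and by 3.25 to 15.6 points.

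**Figure D1:**
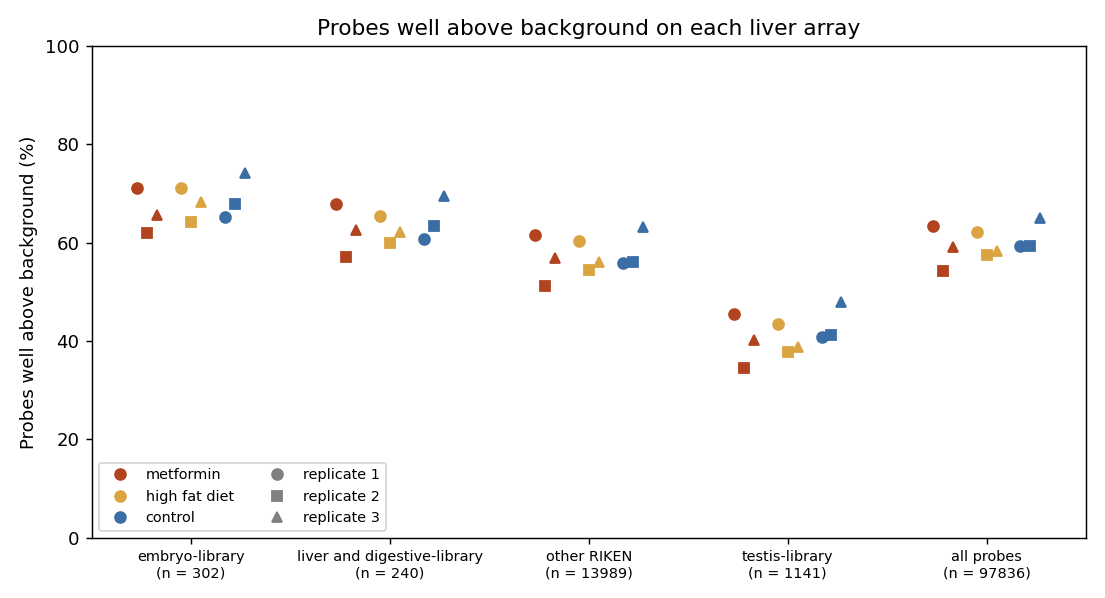
Share of probes well above background on each array (vertical axis, percent) for embryo-library clones, 3 other sets of RIKEN clones and all probes, with 1 point per array. Embryo-library clones lie between 61.9% and 74.2%, above each other set on all 9 arrays, and the 3 groups overlap.

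By library, in the order of the 4 clones named above, 39 of 65, 44 of 71, 36 of 58 and 57 of 108 clones were above background on all 9 arrays. By kind, 63 of 98 coding clones (64.3%), 11 of 22 noncoding or pseudogene clones (50%) and 102 of 182 clones with no gene name (56.0%) were. These differences were not tested. Examples of the named clones above background on all 9 arrays, picked by hand and standing for no group, were Cct4, a subunit of the chaperonin that folds actin and tubulin, Xiap, an inhibitor of caspases, Prkar2a, a regulatory subunit of protein kinase A, Capza2, a subunit of the actin capping protein, and Pbrm1, a subunit of a SWI/SNF chromatin remodeller. Mean levels of the 176 probes ranged between -2.81 and 5.62, and their median standard deviation between pools was 0.15 in metformin, 0.17 in high fat diet and 0.22 in control livers.

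Among the 70 clones above background on no array, 27 had a gene name. They included Cenph, a kinetochore protein of dividing cells, Plagl1, an imprinted zinc finger gene of fetal growth, Lpar4, a receptor for lysophosphatidic acid, and Fbln2 and Col23a1, both of the extracellular matrix. These examples were picked by hand and stand for no group. Rnf6, Zfp429, Tmem132c and Tmem167 were among the 27 as well. Their signals lay at the detection limit, and no level is given for them. A probe for 1 clone says nothing on other transcripts of its gene.

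**Figure D2:**
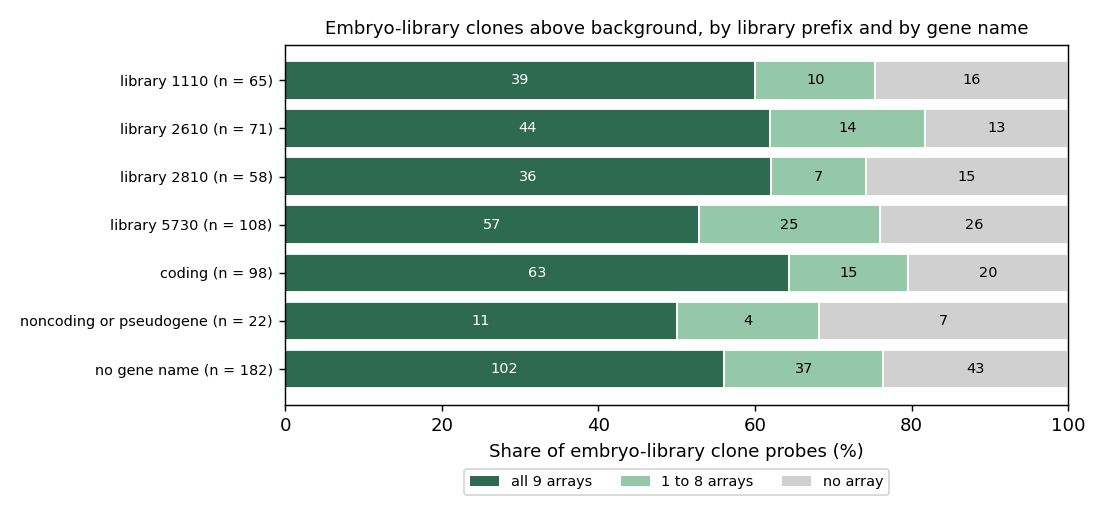
Share of embryo-library clone probes (horizontal axis, percent) above background on all 9 arrays, on 1 to 8 arrays and on no array, by clone prefix and by kind of gene name, with the number of probes in each bar segment. The largest library has 57 of 108 clones above background on all 9 arrays and coding clones have 63 of 98.

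No clone was above background on all 3 arrays of one group and on no array of another. Of the 56 clones detected on some arrays, 19 had a gene name. Entpd1, an enzyme that breaks down extracellular ATP, was above background on 1 metformin, 3 high fat diet and 1 control array. Zfp622, a zinc finger protein of ribosome assembly, was above background on 1 metformin, 1 high fat diet and 3 control arrays. Tmem208, a membrane protein of the endoplasmic reticulum, was above background on 0 metformin, 2 high fat diet and 0 control arrays. Chd2, a chromatin remodeller, was above background on 1 control array alone. Such flags near the detection limit move with small changes in signal.

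Levels were compared between groups with limma, fitted over the 62036 tested probes of the array, with Benjamini-Hochberg adjustment over all of them. All 214 embryo-library clones above background on at least 3 arrays were tested. A clone could enter the test through the group in which it was high, so counts over the 214 are descriptions. Beside them stand the counts at each p threshold, of pools without overlap and of 2-fold differences over the 176 clones above background on all 9 arrays. The 3 comparisons share pools and are not independent of each other.

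Metformin livers were compared with control livers, a contrast that holds both the diet and the drug. Zmynd8 was the 1 clone of 214 that passed the threshold, where 0.546% of all tested probes did. Zmynd8 encodes a chromatin reader that binds modified histones through a bromodomain and neighbouring domains. Its clone had levels of -1.46, -0.73 and -1.29 in metformin pools, against -2.66, -2.79 and -2.79 in control pools. Every metformin pool lay above every control pool, and the signal of control replicate 1 was not above background. Zmynd8 rose by 1.59 on the log2 scale (SE 0.275), a 3.01-fold difference, with a limma adjusted p of 0.0459. In high fat diet pools it had -2.94, -2.17 and -1.87, below every metformin pool and spread across the control levels.

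The Zmynd8 call stood near the threshold. Its adjusted p was 0.0577 with the replicate number as a block, 0.0740 with no filter on dim probes and 1.00 with slide as a block, where the change was 0.74. Within slide 2, the 2 metformin pools exceeded the 2 high fat diet pools by 0.93, and within slide 1 the high fat diet pool lay 0.19 below the 3 control pools (-0.19). With normexp background correction the change was 0.79 with an adjusted p of 0.0270. Without control replicate 1 the change was 1.63 with an adjusted p of 0.0391. Leaving out 1 array at a time gave 1.37 to 1.74, with adjusted p above the threshold in 6 of 9 cases, the highest being 0.149 without metformin replicate 3.

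**Figure D3:**
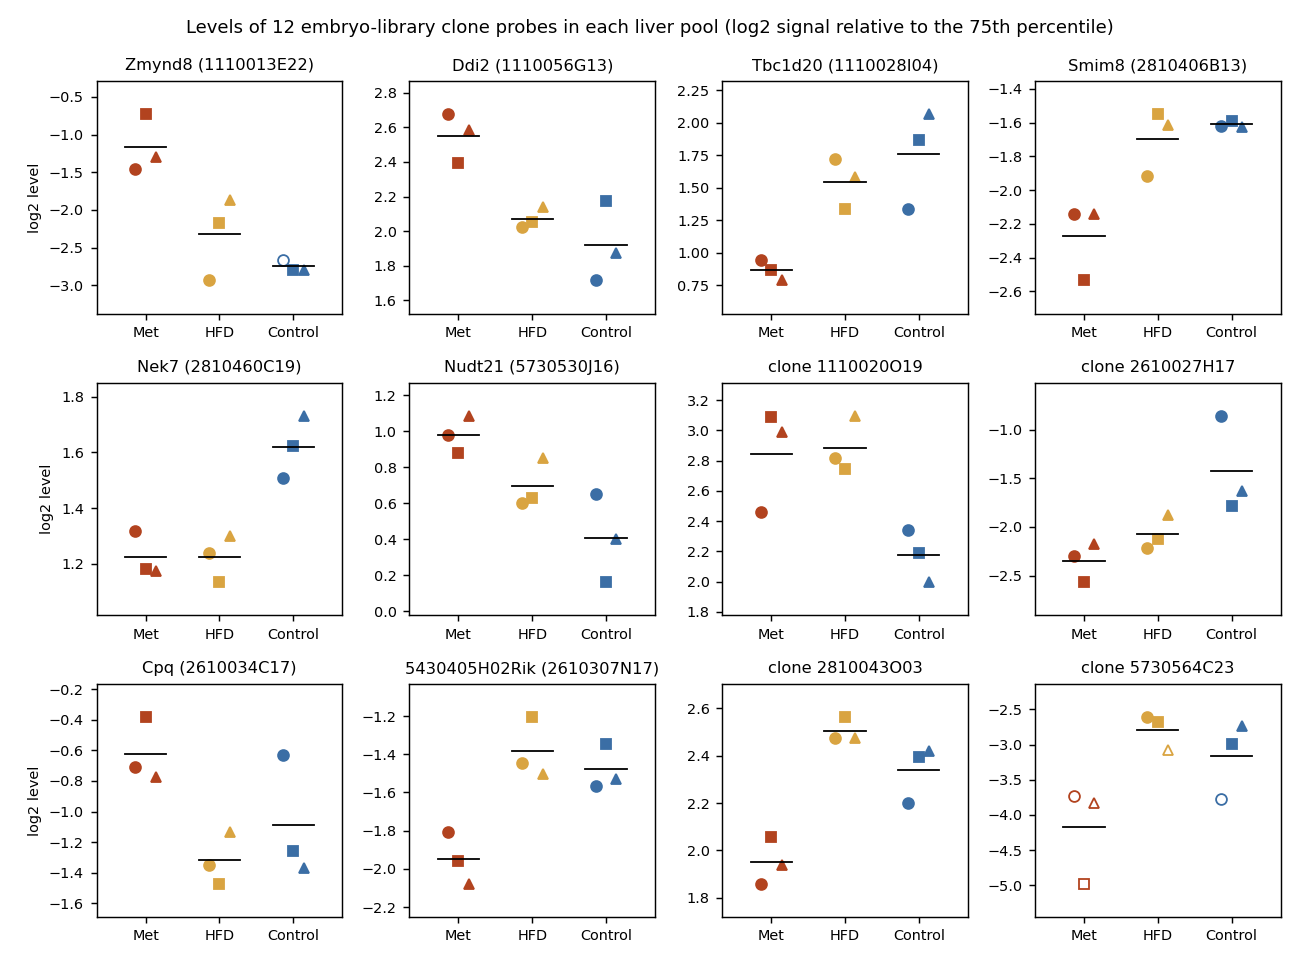
Levels (vertical axes, log2 signal relative to the 75th percentile of the array) of 12 embryo-library clone probes in metformin (Met), high fat diet (HFD) and control pools. Each point is 1 pool, with circles, squares and triangles for replicates 1, 2 and 3, open points for signals not above background, and a line at the group mean. The 3 metformin pools lie above all others for Zmynd8 and Ddi2 and below all others for Tbc1d20 and Smim8.

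The next smallest adjusted p values belonged to Tbc1d20, Smim8 and Ddi2. Tbc1d20, an activator of Rab GTPase hydrolysis in early secretory traffic, had 0.95, 0.87 and 0.79 in metformin pools, 1.72, 1.34 and 1.58 in high fat diet pools and 1.34, 1.87 and 2.07 in control pools. The metformin pools lay below all others. Its change against control was -0.89 (SE 0.197, limma adjusted p = 0.0706), and the adjusted p was 0.0252 without control replicate 1, 0.0382 with normexp correction and 0.0478 among probes above background on all 9 arrays. With slide as a block its change was -0.59.

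Ddi2, an aspartic protease that cuts the transcription factor Nfe2l1 when the proteasome is impaired, had 2.68, 2.39 and 2.59 in metformin pools, 2.02, 2.05 and 2.14 in high fat diet pools and 1.72, 2.17 and 1.88 in control pools. The metformin pools lay above all others. Its change against control was 0.63 (SE 0.156, limma adjusted p = 0.0890). Smim8, a small membrane protein, had -2.14, -2.53 and -2.14 in metformin pools, -1.92, -1.55 and -1.62 in high fat diet pools and -1.62, -1.59 and -1.63 in control pools. Its metformin pools lay below all others, with a change against control of -0.66 (SE 0.161, limma adjusted p = 0.0851), which was -0.29 with normexp correction and -1.06 with slide as a block.

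For these 4 clones, which had the smallest adjusted p in metformin against control, the RefSeq promoter windows on GRCm38.p6 are given, 250 bases ending just before the annotated start. Zmynd8 has 5 starts in the table and the window listed first is shown, which need not be that of its main start. Of the 98 coding clones, 84 had a window. Capitals mark the GC box letters GGGCGG and the CCAAT box letters CCAAT, each on either strand. The windows were also searched for the TATA box letters TATAAA on either strand, which occur in none of the 4.
Zmynd8, chr2:165884839-165885088, minus strand: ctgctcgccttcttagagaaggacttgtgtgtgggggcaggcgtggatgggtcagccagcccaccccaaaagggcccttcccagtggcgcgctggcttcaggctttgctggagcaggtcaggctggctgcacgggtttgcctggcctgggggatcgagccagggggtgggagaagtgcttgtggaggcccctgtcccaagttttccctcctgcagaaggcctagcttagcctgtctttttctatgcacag
Ddi2, chr4:141723420-141723669, minus strand: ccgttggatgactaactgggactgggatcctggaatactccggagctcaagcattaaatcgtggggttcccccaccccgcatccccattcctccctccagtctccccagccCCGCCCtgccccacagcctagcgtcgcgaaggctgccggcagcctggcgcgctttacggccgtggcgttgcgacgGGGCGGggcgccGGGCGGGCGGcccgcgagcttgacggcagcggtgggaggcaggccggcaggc
Tbc1d20, chr2:152293578-152293827, plus strand: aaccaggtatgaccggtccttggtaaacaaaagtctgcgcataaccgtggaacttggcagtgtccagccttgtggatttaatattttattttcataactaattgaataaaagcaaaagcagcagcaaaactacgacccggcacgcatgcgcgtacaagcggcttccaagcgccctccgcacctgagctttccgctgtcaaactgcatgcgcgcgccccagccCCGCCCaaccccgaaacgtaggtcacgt
Smim8, chr4:34778367-34778616, minus strand: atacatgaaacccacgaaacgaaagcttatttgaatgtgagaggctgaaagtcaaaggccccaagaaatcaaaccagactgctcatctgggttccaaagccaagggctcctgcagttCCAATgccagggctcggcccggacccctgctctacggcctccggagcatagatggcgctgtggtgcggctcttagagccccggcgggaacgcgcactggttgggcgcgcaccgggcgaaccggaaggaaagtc
The window of Zmynd8 held 0 GC boxes and 6 CpG dinucleotides, that of Ddi2 held 4 GC boxes, some overlapping, and 26 CpG dinucleotides, that of Tbc1d20 held 1 GC box and 19 CpG dinucleotides, and that of Smim8 held 0 GC boxes, 1 CCAAT box and 17 CpG dinucleotides. Over the first window of all 17492 coding genes in the table, 42.7% held a GC box, 36.3% a CCAAT box and 12.4% a TATA box, and the median CpG count was 10. Over the 84 windows of coding embryo-library clones, 63.1% held a GC box, 33.3% a CCAAT box and 9.52% a TATA box, and the median CpG count was 16. The median CpG count was 18 both for the 56 windows of clones above background on all 9 arrays and for the 17 windows of clones above background on none.

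Further clones had lower adjusted p values without control replicate 1. Nudt21, a subunit of the complex that selects polyadenylation sites, had 0.98, 0.88 and 1.09 in metformin pools, 0.60, 0.63 and 0.85 in high fat diet pools and 0.65, 0.16 and 0.40 in control pools. Its change against control was 0.58 (SE 0.161, limma adjusted p = 0.112), and 0.70 with an adjusted p of 0.0421 without control replicate 1. Tex10, a component of a complex that processes ribosomal RNA, had -0.05, -0.19 and -0.04 in metformin pools and -0.25, -0.96 and -1.03 in control pools. Control replicate 1 was the highest control pool for both genes. The change of Tex10 was 0.65 (limma adjusted p = 0.151), and 0.90 with an adjusted p of 0.0288 without control replicate 1. Msl1, a scaffold of a histone acetyltransferase complex, had 0.15, 0.04 and 0.21 in metformin pools and 0.14, 0.76 and 0.76 in control pools. Without control replicate 1, 6 clones were called: Zmynd8, Tbc1d20, Nudt21, Tex10, Msl1 and the 2610018C13 clone of 5730408K05Rik. They were 2.80% of the 214, beside 4.37% of all tested probes called in the same fit.

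Of the other clones with a gene name, Nek7, a kinase that takes part in inflammasome assembly, had 1.32, 1.18 and 1.18 in metformin pools, 1.24, 1.13 and 1.30 in high fat diet pools and 1.51, 1.62 and 1.73 in control pools. Both high fat diet groups lay below control, with changes of -0.40 against control in each (SE 0.131; limma adjusted p = 0.154 for metformin, 0.271 for high fat diet). Svop, a transporter-like protein of synaptic vesicles, had -3.29, -4.06 and -3.57 in metformin pools, of which 1 was above background, and -2.90, -2.31 and -2.89 in control pools. The fitted difference of -0.94 (limma adjusted p = 0.135) rests on 2 metformin signals that were not above background, so its size is not well measured, and it was -0.13 with normexp correction. The noncoding 2810429I04Rik had 2.71, 2.70 and 2.78 in metformin pools and 2.22, 2.30 and 2.23 in control pools, with a change of 0.48 (SE 0.157, limma adjusted p = 0.152). In high fat diet pools it had 2.21 on slide 1, near the control pools of that slide, and 2.70 and 2.69 on slide 2, and with slide as a block its change was -0.03.

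Among the 127 tested clones with no gene name, changes in metformin against control ran between -1.12 and 0.68. Clone 5730411F24 had 0.73, 0.59 and 0.88 in metformin pools, 0.53, 0.48 and 0.47 in high fat diet pools and 0.19, 0.34 and 0.16 in control pools, with no overlap between any of the groups. Its change was 0.50 for metformin against control (SE 0.133, limma adjusted p = 0.0989). Clone 2610027H17 had -2.30, -2.57 and -2.18 in metformin pools, -2.22, -2.13 and -1.88 in high fat diet pools and -0.86, -1.78 and -1.63 in control pools. Its change against control was -0.93 (SE 0.238, limma adjusted p = 0.0945), and -0.64 without control replicate 1, its highest pool. Clone 2610028L16 was likewise highest in control replicate 1, with -1.14, -1.19 and -0.93 in metformin pools against 0.14, -0.65 and -0.48 in control pools, a change of -0.76 (limma adjusted p = 0.114).

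Counted over the 214 tested clones, 104 (48.6%) had a positive and 110 a negative change in metformin against control livers, beside 49.3% positive among all tested probes. The median was -0.01 both over these clones and over all tested probes. At an unadjusted limma p under 0.05 there were 41 clones, 19.2% beside 19.1% of all tested probes. Of these, 17 were higher and 24 lower, where 8.65% and 10.4% of all tested probes were. Pools did not overlap for 55 clones, 25.7% beside 24.9%, with 25 higher and 30 lower, each direction beside 12.5%. At least 2-fold differences were seen for 3 clones, beside 3.49%. Over the 176 clones above background on all 9 arrays, 34 (19.3%) passed that unadjusted p beside 17% of all such probes, 50 (28.4%) had pools without overlap beside 24.3%, and 0 reached 2-fold beside 1.42%. With adjustment over all 62036 tested probes none of the 176 was called, where 0.305% of such probes were. In a fit of the 49429 probes above background on all 9 arrays alone, 1 of the 176 was called, Tbc1d20, beside 1.29% of those probes. With slide as a block, 5 of the 214 clones (2.34%) had an unadjusted p under 0.05, beside 4.26% of all tested probes.

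Metformin livers were then compared with high fat diet livers, which differ in the drug alone per the labels. No embryo-library clone was called, where 0.00645% of all tested probes were. At an unadjusted limma p under 0.05 there were 18 of 214 clones, 8.41% beside 6.64% of all tested probes. Of these, 7 were higher and 11 lower, where 3.31% and 3.34% of all tested probes were. Pools did not overlap for 43 clones, 20.1% beside 16.2%, with 18 higher beside 8.04% and 25 lower beside 8.15%. At least 2-fold differences were seen for 3 clones, Zmynd8, 5730529D01 and 5730564C23, beside 0.69% of all tested probes. The median change was -0.03 beside 0.01 over all tested probes, with 92 positive (43.0%) and 122 negative changes, beside 51.3% positive. Over the 176 clones above background on all 9 arrays, 14 (7.95%) passed that unadjusted p beside 6.01% of all such probes, and none was called beside 0.00607%. Of the 176, 38 (21.6%) had pools without overlap beside 17.5%, and 0 reached 2-fold beside 0.235%, so that each of the 3 clones past 2-fold was below background on at least 1 array. With slide as a block, 10 of 214 clones (4.67%) passed the unadjusted p beside 4.22% of all tested probes.

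Zmynd8 had the smallest p among clones in this comparison, with a change of 1.17 (SE 0.275, limma adjusted p = 0.502). The changes of Ddi2, Tbc1d20 and Smim8, whose levels are given above, were 0.48, -0.68 and -0.58, with limma adjusted p of 0.647, 0.594 and 0.573. Cpq, a carboxypeptidase, had -0.71, -0.39 and -0.78 in metformin pools, -1.35, -1.47 and -1.14 in high fat diet pools and -0.63, -1.26 and -1.37 in control pools. Each metformin pool was above each high fat diet pool, with a change of 0.70 (SE 0.213, limma adjusted p = 0.611), and control replicate 1 lay among the metformin pools. Abhd17b, an enzyme that removes palmitate from proteins, had -0.10, -0.14 and -0.49 in metformin pools against 0.62, 0.04 and 0.68 in high fat diet pools, a change of -0.69 (limma adjusted p = 0.581). Ankzf1, of ribosome quality control, and Mapk6, an atypical MAP kinase, had changes of 0.55 and 0.34 with overlapping pools (limma adjusted p = 0.782 and 0.798).

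Both noncoding clones with the smallest p were lower in each metformin pool than in each high fat diet pool. The 2610307N17 clone of 5430405H02Rik had -1.81, -1.96 and -2.08 in metformin pools, -1.44, -1.21 and -1.50 in high fat diet pools and -1.56, -1.35 and -1.53 in control pools. Its metformin pools were below all others, with a change of -0.56 against high fat diet (SE 0.146, limma adjusted p = 0.546) and of -0.47 against control (limma adjusted p = 0.139). With normexp correction these were -0.27 and -0.18. The clone of 2810408I11Rik had -1.58, -1.32 and -1.24 in metformin pools against -0.56, -0.68 and -1.02 in high fat diet pools, a change of -0.63 (limma adjusted p = 0.647).

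Clone 2810043O03 had 1.86, 2.06 and 1.94 in metformin pools, 2.47, 2.56 and 2.47 in high fat diet pools and 2.20, 2.39 and 2.42 in control pools. Its metformin pools were below all others, with a change of -0.55 against high fat diet (SE 0.131, limma adjusted p = 0.514), and -0.56 within slide 2. Clone 5730564C23 was above background on 0 metformin, 2 high fat diet and 2 control arrays. Its mean high fat diet signal was 2.01-fold above that of metformin, taken against the lowest signal well above background (limma adjusted p = 0.542). That mean includes a signal not above background, so the figure is not a strict minimum. Clone 5730407I07 had 0.56, 0.79 and 0.58 in metformin pools against -0.02, 0.17 and 0.20 in high fat diet pools, a change of 0.53 (limma adjusted p = 0.647). Clone 5730529D01 was above background on no high fat diet array and not on all 3 metformin arrays. Taken in the same way, its mean metformin signal was 1.73-fold higher, likewise not a strict minimum (limma adjusted p = 0.698).

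**Figure D4:**
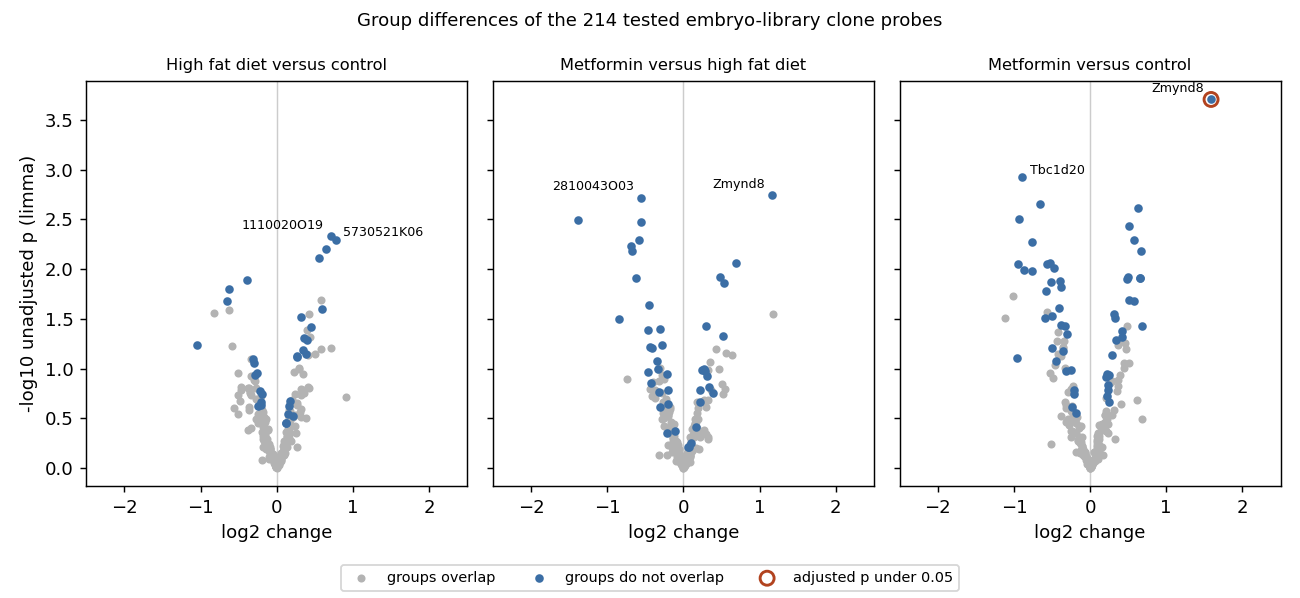
Log2 change (horizontal axes) and -log10 of the unadjusted limma p (vertical axis) of the 214 tested embryo-library clone probes in 3 comparisons, with 1 point per probe. Blue points are clones whose pools do not overlap between the groups (32, 43 and 55 clones from left to right), and the ring marks the called clone, Zmynd8.

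High fat diet livers were compared with control livers, which differ in diet and, per the labels, in the saline gavage. No embryo-library clone was called, where 0.0451% of all tested probes were. At an unadjusted limma p under 0.05 there were 17 of 214 clones, 7.94% beside 12.1% of all tested probes. Of these, 12 were higher and 5 lower, where 4.88% and 7.2% of all tested probes were. Pools did not overlap for 32 clones, 15.0% beside 15.4%, with 19 higher beside 7.27% and 13 lower beside 8.13%. The median change was -0.0025 beside -0.01 over all tested probes, with 106 positive (49.5%) and 108 negative changes, beside 48.2% positive. Over the 176 clones above background on all 9 arrays, 15 (8.52%) passed that unadjusted p beside 9.94% of all such probes, and none was called beside 0.0223%. Of the 176, 31 (17.6%) had pools without overlap beside 14.6%, and 1 reached 2-fold beside 1.13%. With slide as a block, 6 of 214 clones (2.80%) passed the unadjusted p beside 4.81% of all tested probes. Without high fat diet replicate 2, 11 (5.14%) did, beside 9.22%.

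The smallest p belonged to clones with no gene name. Clone 1110020O19 had 2.81, 2.74 and 3.10 in high fat diet pools and 2.34, 2.19 and 2.00 in control pools, a change of 0.71 (SE 0.195, limma adjusted p = 0.206). In metformin pools it had 2.46, 3.09 and 2.99, also above each control pool, with a change of 0.67 (limma adjusted p = 0.121). Clone 5730521K06 had 0.51, 0.74 and 0.58 in high fat diet pools and -0.18, -0.20 and -0.11 in control pools, a change of 0.77 (SE 0.215, limma adjusted p = 0.210). Within slide 1, where 1 high fat diet pool stood beside the 3 control pools, the differences of these clones were 0.64 and 0.68. Clone 2610027H17 had a change of -0.65 (limma adjusted p = 0.315), and -0.37 without control replicate 1. Clone 2610028L16 had -0.92, -1.17 and -0.76 in high fat diet pools, a change of -0.62 (limma adjusted p = 0.287), and -0.39 without control replicate 1. A difference of at least 2-fold was seen for 1 of 214 clones, beside 2.63% of all tested probes. It was clone 2810038D20, named after its values were seen, with a change of -1.05 (limma adjusted p = 0.438).

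Of the clones with a gene name, Pik3cd, a catalytic subunit of phosphoinositide kinase found mostly in white blood cells, had -1.82, -1.49 and -1.27 in high fat diet pools and -1.97, -2.16 and -2.23 in control pools. The pools did not overlap, with a change of 0.60 (SE 0.225, limma adjusted p = 0.332) that was 0.30 within slide 1 and 0.28 with normexp correction. Prcp, a peptidase that inactivates angiotensin and melanocortin peptides, had 0.39, 0.29 and -0.06 in high fat diet pools and -0.27, -0.04 and -0.33 in control pools, a change of 0.42 (SE 0.163, limma adjusted p = 0.343). Synpo2, an actin-binding protein of muscle, had a change of 0.40 (limma adjusted p = 0.388) and Abhd17b one of 0.44 (limma adjusted p = 0.408), both with overlapping pools. The pseudogene 2610024D14Rik had 2.05, 1.75 and 2.25 in high fat diet pools and 1.59, 1.73 and 1.65 in control pools, a change of 0.36 (limma adjusted p = 0.411).

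Among the lower ones beside Nek7, Chrac1, a histone-fold subunit of a nucleosome remodeller, had -1.94, -1.92 and -2.03 in high fat diet pools and -1.83, -1.85 and -1.43 in control pools. Its pools did not overlap, with a change of -0.26 (SE 0.148, limma adjusted p = 0.541), which was -0.12 without control replicate 3. Tspan18, a tetraspanin, had -2.60, -3.21 and -2.48 in high fat diet pools and -1.89, -2.05 and -2.48 in control pools, a change of -0.62 (limma adjusted p = 0.334) and of -0.40 without high fat diet replicate 2, whose signal was not above background. Svop had a change of -0.51 (limma adjusted p = 0.541), which was -0.22 without high fat diet replicate 2, whose signal was not above background. Proser1 had a change of -0.29 (limma adjusted p = 0.550), which was -0.14 within slide 1.

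Named clones were also read by groups of genes with a common role, listed by symbol. No clone belonged to the respiratory chain, to mitochondrial ribosome and import or to lipid and sterol metabolism. In translation, the members by symbol were Eif5, a factor of start codon recognition, and Rps23rg1, a retrogene of a ribosomal protein that need not act in translation. Both were above background on all 9 arrays. In RNA processing the same held for Sf3b3, a subunit of the splicing machinery, and Exosc1, a subunit of the RNA exosome. In vesicle traffic it held for all 3 members: Vps51, of endosome-to-Golgi tethering, Snx6, of the retromer, and Vps36, of the complex that sorts cargo into multivesicular bodies. Of 3 ubiquitin genes, Ube2j2 and Rnf220 were above background on all 9 arrays and Rnf6 on none. None of these tested members passed the adjusted threshold in any comparison, and none had an unadjusted p under 0.05.

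Eif5 had 1.16, 0.62 and 0.98 in metformin pools, 1.15, 1.25 and 0.94 in high fat diet pools and 0.53, 0.71 and 0.91 in control pools. Each high fat diet pool was above each control pool, and the metformin pools spanned both. Sf3b3 had -1.57, -1.72 and -1.63 in metformin pools, -1.72, -1.41 and -1.40 in high fat diet pools and -1.47, -1.37 and -1.33 in control pools. Its metformin pools lay below each control pool. Among 7 solute carriers and transmembrane proteins, Slc9a9, an endosomal sodium-proton exchanger, and Tmem168 were above background on all 9 arrays, and Tmem132c and Tmem167 on none. Slc25a24, a mitochondrial carrier of adenine nucleotides, had -2.76, -2.57 and -2.53 in metformin pools, -2.38, -2.29 and -1.92 in high fat diet pools and -3.15, -2.01 and -2.35 in control pools. Control replicate 1 was its lowest pool and was not above background.

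Some genes were read by a further probe. The Vps36 clone 2810408E15 had -1.48, -1.78 and -1.56 in metformin pools, -1.11, -1.51 and -1.06 in high fat diet pools and -2.00, -1.12 and -0.84 in control pools. Across the 9 arrays it had a correlation of 0.970 with a testis-library clone of Vps36, both low in control replicate 1, and their changes for metformin against high fat diet were -0.38 and -0.24. The correlation is a description over arrays that the probes share. The clones 2610018C13 and 5730408K05 of the long noncoding 5730408K05Rik did not move together, with a correlation of -0.15 and changes of -0.57 and 0.10 for metformin against control (limma adjusted p = 0.202 and 0.922). Clone 2610018C13 was above background on all 9 arrays and clone 5730408K05 on 3. The Bclaf1 clone, for a protein of RNA processing and cell death, had a change of 0.28 for metformin against control beside 0.66 for another Bclaf1 clone (limma adjusted p = 0.581 and 0.112). Neither pair passed the threshold.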

How the data were processed

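Per the file headers, Agilent Feature Extraction 11.5.1.1 was run by the authors on 9 single-colour arrays, while the submitters' processing notes name version 10.7. The deposited spot values used are processed signals, a linear intensity from which the authors had removed background, per the file headers. Log2 values of the whole series were deposited as well, and differed from log2 of the processed signal by a constant in each array, to within 0.01 for 100% of probes, with column medians of -2.39 to -2.16. No spot was saturated, and 73 to 192 outlier spots of 175906 per array were removed.

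Spots of the same probe were averaged on the log2 scale, and levels were set relative to the 75th percentile of each array. Probes above background on at least 3 of 9 arrays and with a value on every array were tested with limma 3.58.1 (R 4.3.3), lmFit and eBayes over the 3 groups, and called at an adjusted p under 0.05 (Benjamini-Hochberg). On simulated data for metformin against control (62036 probes, of which 100 were changed at each fold size), 32 were recovered at a 2-fold and 82 at a 4-fold change, with 7 false calls. The simulated noise was independent between probes and held no slide effect, so these rates may not hold for the real arrays. Arrays give no read depth, and their number limits the precision. Alternatives were normexp correction (offset 50, on the median signal in place of the planned mean signal), quantile normalization, the deposited log2 table, other filters on dim probes, slide or replicate number as a block, and each array left out in turn. Deviations of same-numbered pools correlated between -0.094 and 0.128, and those of differently numbered pools between -0.143 and 0.101. These ranges overlap, and the numbers were not taken to pair pools, which was not tested.

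The members, gene groups and comparisons were chosen with earlier results of these data known. Named clones are those called in a comparison, the 5 with and 2 without a gene name of smallest p per comparison and direction, up to 6 per gene group, and genes with a further probe; others were named after their values were seen. Gene names come from RefSeq's table for GRCm38.p6 through the clone name. The files' build field names mm9, and the only coordinates printed are those of RefSeq promoter windows.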

Additional observations from a re-analysis of the deposited data

How the results depend on the processing

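The number of called clones in metformin against control, 1, was 0 with no filter on dim probes, with the replicate block and with slide as a block, and 2 with normexp correction, and ranged from 0 to 6 when 1 array was left out, the 6 being without control replicate 1, where 4.37% of all tested probes were called. The count was also 0 on leaving out control replicate 2 or 3, high fat diet replicate 2 or any 1 metformin array. With slide as a block, clones at an unadjusted p under 0.05 numbered 6 for high fat diet against control, 10 for metformin against high fat diet and 5 for metformin against control. For high fat diet against control the count was between 11 and 23 with 1 array left out. The mean share above background was 85.8% under the software's laxer flag for positive and significant signal, against 67.7% in the main setting. It was 65.2% where all spots of a probe had to pass, with 166 clones (55.0%) above background on all 9 arrays and 81 (26.8%) on none. The cause of these shifts was not tested. With the replicate number as a block, though the numbers were not taken to pair pools, Zmynd8 had an adjusted p of 0.0577.

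Changes of sign occurred for Zmynd8 in high fat diet against control (-0.19 with slide as a block), 2810429I04Rik (-0.032) and Bclaf1 (-0.090) in metformin against control with slide as a block, and the 5730408K05 clone of 5730408K05Rik in metformin against control (-0.24 without control replicate 2, -0.08 without metformin replicate 1, and up to 0.42 without control replicate 1). Of 759 recomputed single-clone changes under 16 alternatives, 738 kept direction and side of the threshold. Much of this count was fixed in advance. The replicate block, another filter on dim probes and an array left out of the third group leave a change as it was by design. Only that of Zmynd8 in metformin against control was called in the main fit, so few could lose a call. The count therefore does not measure how robust the changes are. Slide is partly confounded with group, so slide and group cannot be told apart in full in these shifts. With slide as a block some changes were smaller and others larger, and 3 pools per group limit the precision.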
